A study of Mus musculus with 5 samples.

Results

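The 10 genes described here are widely used as markers of intestinal stem cells. They were followed through single-cell profiles of the mouse ileum epithelium: Lgr5, Ascl2, Olfm4, Axin2, Gkn3, Smoc2, Slc12a2, Rgmb, Cdca7 and Igfbp4. They were chosen by name, as genes known from earlier work on crypts, and with earlier results of these data known. All 10 were found by symbol among the 27998 genes of the deposited gene table. The cells were epithelial cells of the distal small intestine from C57BL/6 mice aged 8 to 12 weeks. One group of 3 libraries came from mice with sham surgery, and the other of 2 libraries from mice with small bowel resection, an operation in which a length of the small intestine is removed. No genetic modification is given for either group, and the interval between surgery and collection is not given in the sources used here. The labels do not say whether each library is 1 animal or a pool, so p-values measure the spread between these libraries.

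The lining of the small intestine is renewed from stem cells at the base of the crypts. These cells divide under Wnt signals from neighbouring Paneth cells and stroma, and their daughters pass through a zone of fast division before they become absorptive enterocytes or secretory goblet, Paneth, tuft and enteroendocrine cells. Lgr5, the R-spondin receptor, and Ascl2, a basic helix-loop-helix transcription factor, are Wnt target genes and core markers of the dividing stem cell at the crypt base. Axin2, a scaffold of the beta-catenin destruction complex, is a Wnt target that acts as a feedback inhibitor, and Rgmb is a co-receptor of the BMP pathway. Olfm4, Gkn3, Smoc2 and Igfbp4 encode secreted proteins, of which Igfbp4 binds insulin-like growth factors. Slc12a2 is the sodium-potassium-chloride cotransporter, and Cdca7 is a nuclear protein whose gene is a target of E2F and Myc.

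Of 19404 deposited cells, 18955 passed the filters, 735 scored as doublets were removed and 18220 were kept. Libraries held 1281 to 6694 kept cells with medians of 4541 to 6240 unique molecular identifiers (UMIs, each standing for 1 captured molecule) per deposited cell. Pairs of libraries shared 6 to 47 cell barcodes, at most 1.498% of the smaller library. Clusters were named from marker genes that include none of the 10, and the 10 were also left out of the clustering. No cluster was named as a stem or progenitor class, though the 12 progenitor markers other than the members summed to 879 to 1578 CPM in crypt cells. They summed to 497 to 892 CPM in enterocyte-like, 480 to 879 in goblet-like, 580 to 1028 in T cell-like and 86.4 to 179 in Paneth-like cells. Across libraries the crypt range thus met or overlapped those of several other classes. Within each library, however, crypt cells had the highest sum of these classes. All 6 stromal markers were at 0 in crypt cells. The cells called crypt cells here are the 1677 cells of 2 clusters led by cycling genes. One was a S-phase-like class of 695 cells (leading genes Hells, Stmn1, Dut and Mcm6, with Slc12a2 and Cdca7 among its 10 leading genes). The other was a mitotic-like class of 982 cells (Ube2c, Birc5, Cdc20 and Top2a). The name rests on cycling genes, as position in the crypt was not measured, and it leaves out Paneth-like cells. A separate stem cell class was therefore not resolved, and the stem cell label of the genes could be checked only against these cycling classes. The other classes were enterocyte-like (11143 cells), immature enterocyte-like (3390), Paneth-like (1008), goblet-like (555) and T cell-like (447). Crypt cells numbered 81 in sham 1, 267 in sham 2, 420 in sham 3, 335 in resection 1 and 574 in resection 2, and were 6.48%, 7.25%, 15.3%, 9.20% and 8.89% of the epithelial cells. Sham 1 stood apart, with the fewest crypt cells and 17.4% Paneth-like cells against 4.07% to 6.44% in the other libraries. The surgery fold changes in crypt cells and the called state differences are given with and without it.

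Promoter sequence is shown for the members whose level differed between crypt cells split by cycling-gene UMIs in the tests below and whose window lies outside the annotated gene. The RefSeq promoter table (GRCm38.p6) had entries for 7 of the 10 genes. Lgr5, Smoc2 and Slc12a2 had none. Cdca7 (chromosome 2, 72476159 to 72486893, plus strand), Axin2 (chromosome 11, 108920349 to 108950783, plus strand) and Igfbp4 (chromosome 11, 99041244 to 99054392, plus strand) are protein-coding genes placed here by the GENCODE annotation of GRCm38, and their identifiers equal the deposited ones. The stretches run 5′ to 3′ on the plus strand, upstream of the gene. Capitals mark GCGGGAA, an E2F-type motif, at its match near the end of the Cdca7 stretch. The match lies 71 bases before the RefSeq start of Cdca7, which is inside the annotated gene.
Cdca7, chr2:72475969-72476158: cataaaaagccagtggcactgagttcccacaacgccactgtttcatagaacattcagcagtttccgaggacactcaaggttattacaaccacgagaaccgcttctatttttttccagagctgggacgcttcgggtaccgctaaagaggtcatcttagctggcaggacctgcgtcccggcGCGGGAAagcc
Axin2, chr11:108920099-108920348: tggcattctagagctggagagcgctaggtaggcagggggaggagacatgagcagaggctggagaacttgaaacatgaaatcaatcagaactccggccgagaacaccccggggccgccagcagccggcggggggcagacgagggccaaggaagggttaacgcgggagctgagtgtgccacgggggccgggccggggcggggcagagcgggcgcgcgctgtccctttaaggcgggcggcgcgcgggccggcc
Igfbp4, chr11:99040994-99041243: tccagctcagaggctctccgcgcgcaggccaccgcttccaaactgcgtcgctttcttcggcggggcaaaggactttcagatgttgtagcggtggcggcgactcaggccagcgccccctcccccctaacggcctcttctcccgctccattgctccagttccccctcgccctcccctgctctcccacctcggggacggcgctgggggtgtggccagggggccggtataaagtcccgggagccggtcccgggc
GCGGGAA, searched on both strands in the 250 bases before each start, was found in 1 of the 7 members, Cdca7, and in 4.38% of 27025 genes (3.82% of 32851 promoters) in the table. This motif was chosen after the Cdca7 sequence had been seen. ATCAAAG, a TCF/LEF-type motif that mediates Wnt responses, was found in 0 of the 7 members and in 3.72% of the genes (3.21% of the promoters). The motifs do not overlap each other, and a match describes the letters in this window only. Among the 10 members, Lgr5, Axin2 and Smoc2 overlap antisense genes (A930009A15Rik, Gm11670 and 4930474M22Rik), and Olfm4 overlaps Gm6999 on the same strand. Whether the counting used strand is not given in the sources used here, so reads of these pairs may not be told apart.

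Across the cell classes, each of the 10 genes was highest on average in S-phase-like cells. The level is given as UMIs of the gene per 1000000 UMIs of the class in a library (CPM), and classes are compared as a description only. For the core crypt-base markers the fall from crypt cells to enterocyte-like cells was steep. Lgr5 stood at 7.53 CPM in sham 1, 14 in sham 2, 16.7 in sham 3, 23.3 in resection 1 and 20.4 in resection 2 in S-phase-like cells. Its mean was 16.4 ± 6.09 CPM there (SD, n = 5 libraries), 6.15 ± 1.64 in mitotic-like cells and 0.28 ± 0.12 in enterocyte-like cells. Every library had more Lgr5 in S-phase-like than in enterocyte-like cells. Ascl2 stood at 7.53, 46.0 and 42.0 CPM in sham 1 to 3 and at 16.0 and 43.0 in resection 1 and 2 in S-phase-like cells. The lower values were those of sham 1 and resection 1. Its mean fell from 30.9 ± 17.8 in S-phase-like to 11.2 ± 3.86 in mitotic-like and 0.18 ± 0.18 in enterocyte-like cells.

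Olfm4, a secreted glycoprotein whose transcript marks the crypt base, was not seen in crypt cells of sham 1. Its levels in S-phase-like cells were 0 CPM in sham 1, 24.0 in sham 2, 39.1 in sham 3, 27.0 in resection 1 and 41.5 in resection 2. With 24 S-phase-like cells in sham 1, this 0 rests on few cells. In mitotic-like cells Olfm4 averaged 5.67 ± 3.42 CPM and in enterocyte-like cells 0.13 ± 0.10. Gkn3, a gastrokine family gene, was the rarest member, with 36 UMIs in all epithelial cells. It stood at 0, 2.00 and 5.07 CPM in S-phase-like cells of sham 1 to 3 and at 3.68 and 6.04 in resection 1 and 2. It was seen in 0 of 555 goblet-like cells, which by the limit of 3 counts allows a share of cells with a UMI of up to 0.541% (exact 95% upper bound 0.662%), and in 0 of 1008 Paneth-like cells, which allows up to 0.298% (0.365%).

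The other 6 genes were counted more often, with 519 to 3851 UMIs each in the epithelium. Slc12a2, the most counted member with 3851 UMIs, stood at 226, 272 and 356 CPM in S-phase-like cells of sham 1 to 3 and at 385 and 353 in resection 1 and 2. It averaged 148 ± 18.3 CPM in mitotic-like, 84.6 ± 21.0 in goblet-like, 25.8 ± 6.42 in Paneth-like, 14.4 ± 2.15 in immature enterocyte-like and 4.23 ± 0.60 in enterocyte-like cells. Its ranges did not overlap between neighbouring classes in this order, except between Paneth-like (15.3 to 31.4 CPM) and immature enterocyte-like cells (12.5 to 17.5 CPM). Cdca7 stood at 113, 124 and 172 CPM in S-phase-like cells of sham 1 to 3 and at 152 and 141 in resection 1 and 2. It averaged 46.9 ± 11.2 CPM in mitotic-like and 2.42 ± 0.61 in enterocyte-like cells. Smoc2, a matricellular protein, stood at 45.2, 64.0 and 81.1 CPM in S-phase-like cells of sham 1 to 3 and at 74.9 and 74.0 in resection 1 and 2. Its mean of 67.8 ± 14.1 was followed by 43.2 ± 6.74 in mitotic-like cells, and the ranges of these 2 classes overlapped. Igfbp4 stood at 0, 28 and 60.1 CPM in S-phase-like cells of sham 1 to 3 and at 45.4 and 66.4 in resection 1 and 2, again with no UMI in sham 1. Its mean in mitotic-like cells was 15.7 ± 9.75 CPM.

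Axin2 and Rgmb were spread most evenly over the epithelium. Axin2 stood at 30.1, 68.0 and 49.3 CPM in S-phase-like cells of sham 1 to 3 and at 78.5 and 58.1 in resection 1 and 2. Its mean was 56.8 ± 18.5 CPM there, 41.5 ± 7.28 in mitotic-like, 27.9 ± 8.95 in T cell-like, 14.5 ± 5.69 in enterocyte-like and 3.23 ± 0.85 in Paneth-like cells. Paneth-like cells had the lowest level of this Wnt feedback gene, with a range of 1.83 to 3.86 CPM that lay below that of enterocyte-like cells (5.68 to 19.7). Rgmb stood at 15.1, 6.00 and 19.6 CPM in S-phase-like cells of sham 1 to 3 and at 41.7 and 17.4 in resection 1 and 2. Its mean of 19.9 ± 13.2 CPM did not differ from the 15.1 ± 6.69 in mitotic-like cells beyond the spread of the libraries.

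**Figure D1:**
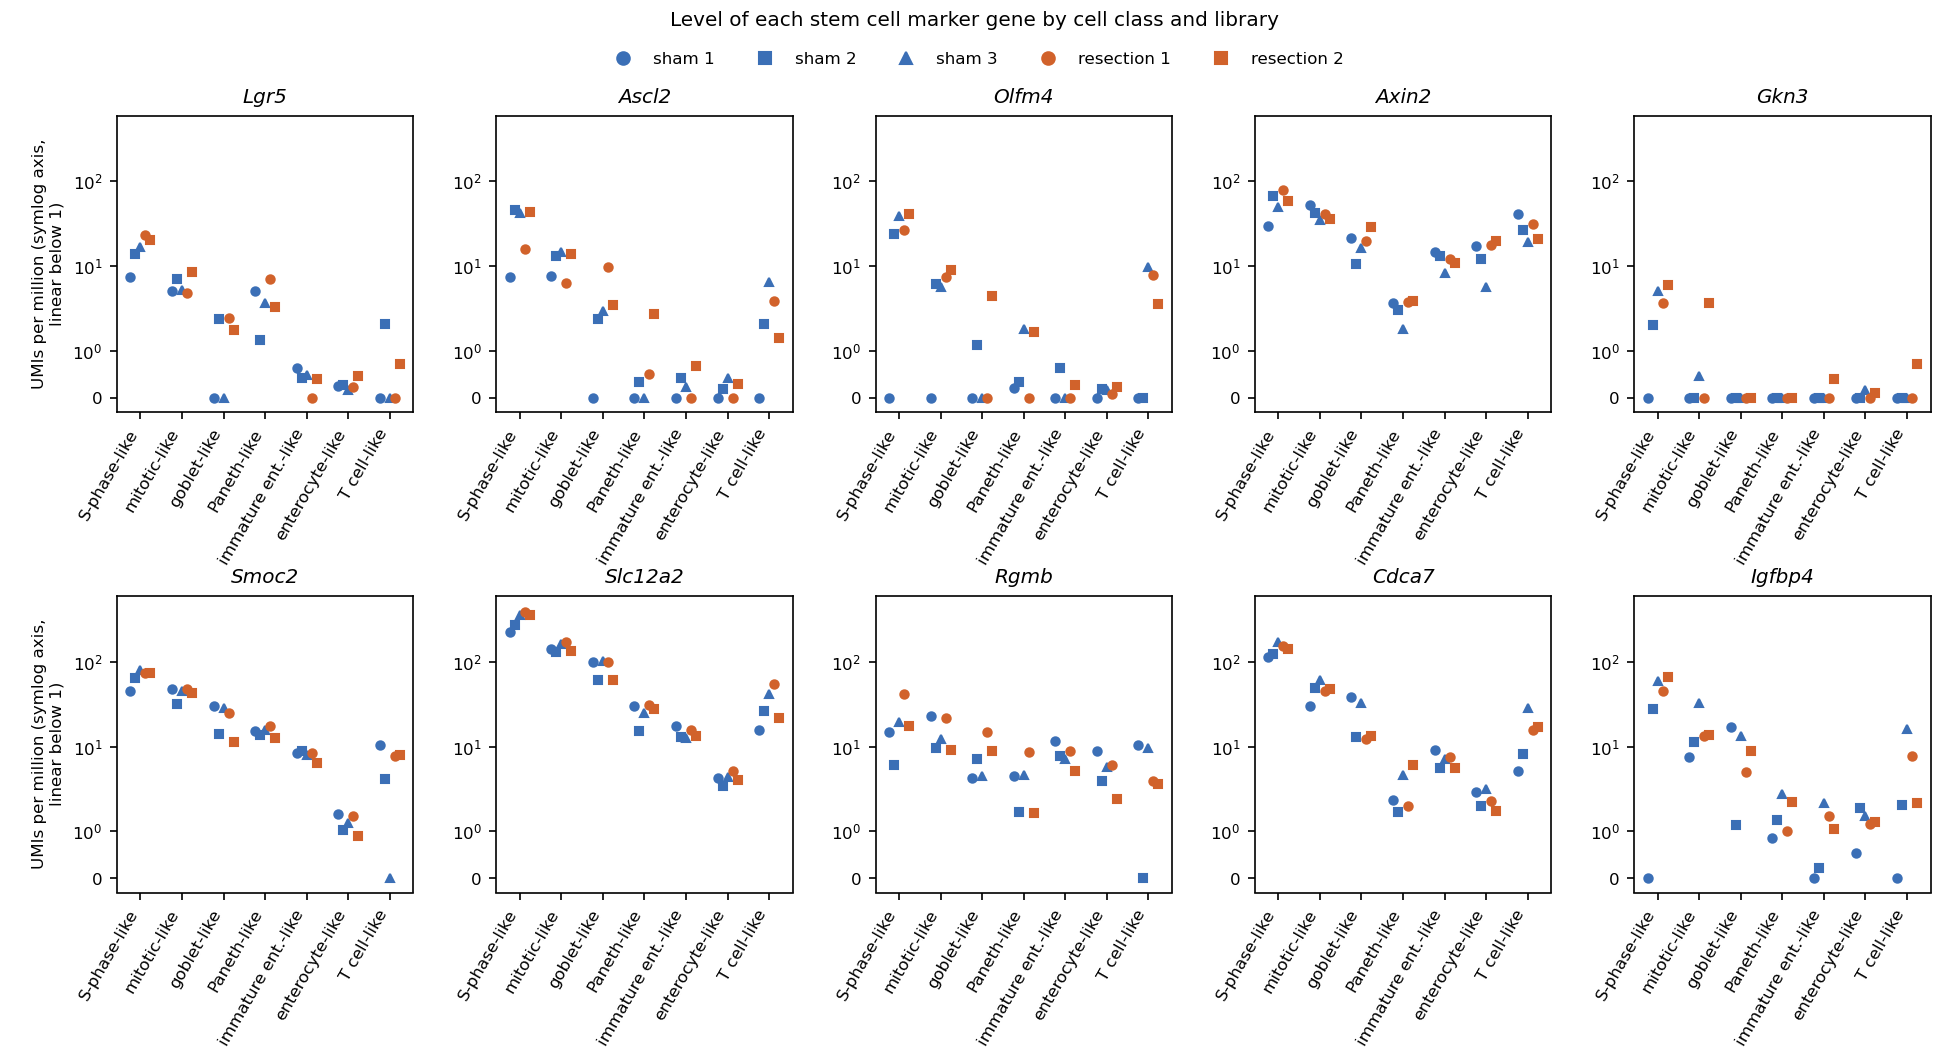
Level of each gene in UMIs per 1000000 (logarithmic axis above 1, linear below) by cell class, with 1 point per library, sham in blue and resection in orange. S-phase-like cells stand highest on average in each panel, Lgr5, Ascl2, Olfm4 and Gkn3 fall to under 1 in enterocyte-like cells, and Axin2 stays near 14.5 there.

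The share of each gene's epithelial UMIs that lay in crypt cells, which were 9.44% of the epithelial cells differed between the members. Crypt cells held 87.6% of the Olfm4 UMIs, 85.8% of Ascl2, 80.6% of Gkn3, 72.5% of Cdca7, 70.3% of Igfbp4, 68.4% of Slc12a2, 56.6% of Lgr5, 55.2% of Smoc2, 30.1% of Axin2 and 26.9% of Rgmb. These shares pool libraries that differ widely: for Lgr5 the share ran from 10.3% in sham 1 to 81.0% in sham 3, for Smoc2 from 20.5% to 71.1% and for Slc12a2 from 29.5% to 80.8% in the same libraries. In sham 3 Lgr5 stood above Cdca7 (79.5%) and Igfbp4 (79.6%), so the order is that of the pooled counts only. Enterocyte-like cells held 49.2% of the Axin2 UMIs and 37.3% of the Rgmb UMIs. For Axin2 and Rgmb, most of the captured message thus came from outside the crypt classes when the libraries were pooled, but in sham 3 crypt cells held 55.0% of the Axin2 UMIs. Enterocyte-like cells were 62.7% of the epithelial cells.

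Lgr5 differed from Ascl2 and Olfm4 in Paneth-like cells, the secretory cells that sit between the stem cells. It stood at 5.15 CPM there in sham 1, 1.36 in sham 2, 3.65 in sham 3, 7.03 in resection 1 and 3.31 in resection 2, each above the enterocyte-like level of the same library (0.17 to 0.48). Paneth-like cells held 66 Lgr5 UMIs, 8 Ascl2 UMIs and 7 Olfm4 UMIs, while crypt cells held 128, 247 and 198. In the pool, the ratio of these genes in Paneth-like cells was not that of crypt cells, but the pools mix libraries unequally. Of the Paneth-like Lgr5 UMIs, 24 came from sham 1 and 28 from resection 1, with 0 and 2 of Ascl2. Crypt cells of these libraries held 3 and 28 Lgr5 UMIs and 4 and 25 Ascl2 UMIs. In sham 2, sham 3 and resection 2, Paneth-like cells held 4, 4 and 6 Lgr5 UMIs and 1, 0 and 5 Ascl2 UMIs, too few to compare ratios. Paneth-like cells held 29.2% of all Lgr5 UMIs, from 8.70% in resection 2 to 82.8% of the 29 UMIs in sham 1. The summed level of the 10 S-phase markers in Paneth-like cells was 13.1 to 39.2 CPM and that of the 10 mitotic markers 10.7 to 46.9, against 648 to 1000 and 1528 to 1892 in crypt cells. Paneth-like cells were deep, with a median of 10090 UMIs, and 5.65% of them had a Lgr5 UMI. Smoc2 (14.9 ± 1.80 CPM) and Slc12a2 (25.8 ± 6.42 CPM) were also counted in Paneth-like cells. Whether the Lgr5 UMIs came from Paneth cells, from crypt-base cells captured with them or from free RNA was not tested.

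**Figure D2:**
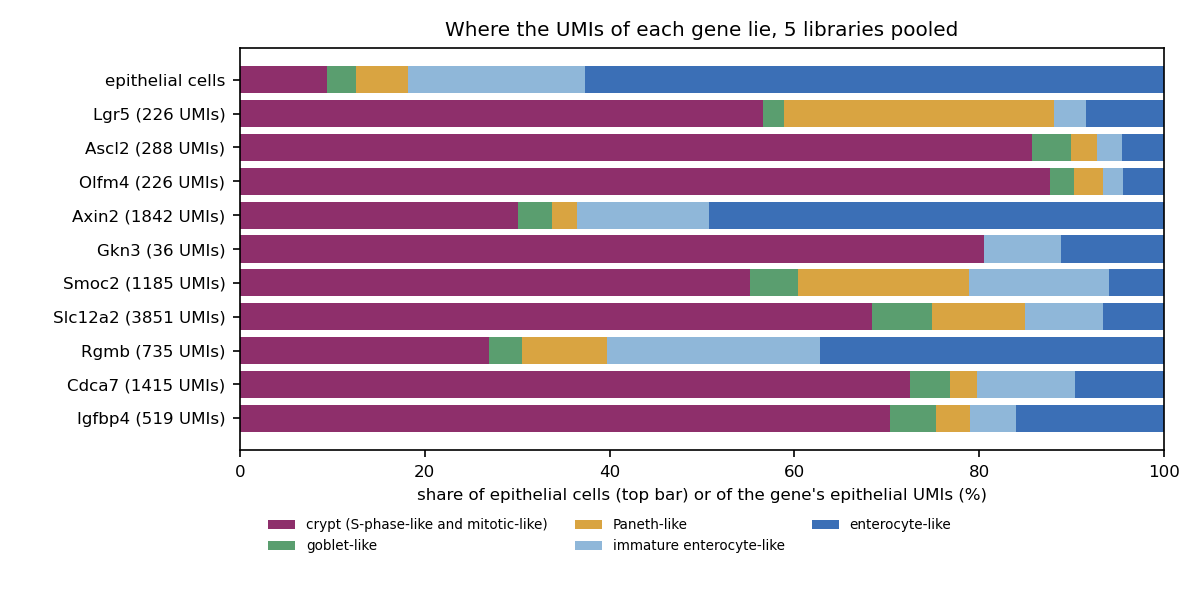
Share (%) of each gene's epithelial UMIs that lay in each class, with the 5 libraries pooled and the share of cells in the top bar. Crypt cells are 9.44% of cells and hold 87.6% of Olfm4 UMIs and 26.9% of Rgmb UMIs, and the Paneth-like share of Lgr5 is 29.2% in this pool and runs from 8.70% in resection 2 to 82.8% in sham 1.

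Few single crypt cells had a UMI of a crypt-base marker. With each cell thinned to 2000 UMIs, 42 of 1677 crypt cells had a Lgr5 UMI (2.50%, exact 95% binomial interval 1.81 to 3.37), 83 had Ascl2 (4.95%), 70 had Olfm4 (4.17%) and 10 had Gkn3 (0.596%). Slc12a2 was found in 31.8%, Cdca7 in 16.5%, Smoc2 in 11.7%, Axin2 in 9.48%, Igfbp4 in 6.32% and Rgmb in 3.28%. The same shares in enterocyte-like cells, which should lack the crypt-base genes, were 0.0897% for Lgr5, 0.0538% for Ascl2, 0.0359% for Olfm4 and 0.0179% for Gkn3. In T cell-like cells they were 0.224%, 0.671%, 0.895% and 0 of 447. Axin2 was found in 3.30% of enterocyte-like and 4.92% of T cell-like cells, and the part of free RNA in these shares was not tested. Before thinning, the shares in crypt cells were 6.26% for Lgr5, 10.8% for Ascl2, 9.30% for Olfm4 and 56.4% for Slc12a2, at a median depth of 6187 UMIs against 4673 in enterocyte-like and 4928 in T cell-like cells. The intervals cover counting error only.

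Crypt cells with a Lgr5 UMI more often had other crypt-base markers than crypt cells without one. Of the 105 crypt cells with a Lgr5 UMI before thinning, 31.4% also had Ascl2 against 9.41% of the crypt cells without Lgr5. For Olfm4 these shares were 32.4% and 7.76%, and for Slc12a2 92.4% and 54.0%. In the pool the Lgr5-positive cells were not deeper, with a median of 5711 UMIs against 6232 in the others. They were deeper in sham 1 (5968 against 5366.5), sham 2 (6043 against 5382.5) and resection 2 (5747.5 against 5319.5). After thinning, with 42 Lgr5-positive cells, the shares were 14.3% and 4.71% for Ascl2, 11.9% and 3.98% for Olfm4 and 69.0% and 30.9% for Slc12a2. Before thinning, sham 1 had 3 Lgr5-positive cells, with neither Ascl2 nor Olfm4 in them. In the other 4 libraries Ascl2 was found in 4 of 20 to 11 of 27 of the Lgr5-positive cells and in 4.44% to 14% of the rest. At least 1 of Lgr5, Ascl2, Olfm4 and Gkn3 was seen in 347 of 1677 crypt cells (20.7%) and at least 2 in 98 (5.84%). By library the first share was 7.41%, 18% and 25.5% in sham 1 to 3 and 15.5% and 23.3% in resection 1 and 2, so that sham 1 was lowest and the resection values lay within the sham range. These shares come from cells of the same 5 libraries and carry no test.

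The next question was how the markers relate to the cell cycle among crypt cells. Crypt cells were split by their UMIs of 2 lists of cycling genes after thinning to 2000 UMIs. Cells with 4 or more UMIs of the 26-gene G2/M list are called G2/M-high (1001 cells), those with fewer and 4 or more of the 25-gene S-phase list S-high (347 cells), and the rest low in both (329 cells). The split is a range and not a cell type, since 255 crypt cells (15.2%) had 3 or 4 G2/M-list UMIs and 367 (21.9%) had 3 or 4 S-phase-list UMIs. Low cells need not be resting, since all lie in classes led by cycling genes. The states also differed in class. Of the 1001 G2/M-high cells, 858 were mitotic-like. Of the 347 S-high and 329 low cells, 340 and 212 were S-phase-like. G2/M-high cells were deeper, with a median of 7210 UMIs against 5123 and 4967. UMIs were summed per library and state and compared within libraries by edgeR's quasi-likelihood test, without the genes of the 2 lists.

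Of the 10 members, 8 passed the filter on low counts, and 5 of these fell against low cells: Slc12a2, Cdca7, Igfbp4, Axin2 and Olfm4. Over all 5971 genes tested, 3.38% fell and 3.1% rose, 6.48% in all. Slc12a2 stood at 159, 192 and 317 CPM in low cells of sham 1 to 3 and at 278 and 289 in resection 1 and 2, against 151, 161, 192, 192 and 149 CPM in G2/M-high cells in the same order. It was lower in 5 of 5 libraries, by a narrow margin in sham 1, by -0.71 ± 0.10 (SE) on the log2 scale (edgeR adjusted p = 4.58e-08). Cdca7 stood at 33.4, 72.8, 143, 114 and 107 CPM in low cells and at 37.7, 59.5, 70.7, 52.4 and 53.7 in G2/M-high cells. It was lower in 4 of 5 libraries, all but sham 1, with a log2 fold change of -0.96 ± 0.13 (edgeR adjusted p = 9.23e-08).

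Igfbp4, the insulin-like growth factor binding protein, stood at 8.36, 19.9, 54.0, 41.0 and 49.4 CPM in low cells and at 6.28, 14.4, 34.5, 18.8 and 15.8 in G2/M-high cells. It was lower in 5 of 5 libraries, by -1.08 ± 0.22 (edgeR adjusted p = 3.18e-04). In sham 1 this rests on 1 UMI in 17 low cells and 2 UMIs in 47 G2/M-high cells, too few to give a direction. Axin2 stood at 66.9, 49.7, 54.0, 79.0 and 59.0 CPM in low cells and at 47.1, 46.0, 34.5, 41.7 and 37.5 in G2/M-high cells. It too was lower in 5 of 5 libraries, by -0.70 ± 0.17 (edgeR adjusted p = 0.00333), and the call was lost without resection 1 (adjusted p = 0.0516) or resection 2 (0.0619). Olfm4 stood at 0, 9.93, 35.2, 23.4 and 25.3 CPM in low cells and at 0, 9.01, 8.73, 10.2 and 13.6 in G2/M-high cells. It was lower in the 4 libraries where it was seen, by -1.23 ± 0.30 (edgeR adjusted p = 0.00376), with little difference in sham 2. It could not be tested without sham 3, and the Igfbp4 call was lost without resection 2 (-0.82, edgeR adjusted p = 0.0952). Without sham 1, the 5 log2 fold changes were -0.74, -0.99, -1.09, -0.70 and -1.23 for Slc12a2, Cdca7, Igfbp4, Axin2 and Olfm4, and all 5 calls held. DESeq2 gave adjusted p-values of 0.0738 for Axin2 and 0.0803 for Igfbp4, and kept the other 3 calls. With 2 list UMIs in place of 4 as the threshold, Axin2, Igfbp4 and Olfm4 were not called, and with 8 Axin2 was not.

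The remaining members did not pass the test. Ascl2 had a log2 fold change of -0.68 ± 0.27 (edgeR adjusted p = 0.137), Rgmb of -0.52 ± 0.29 (0.349) and Smoc2 of -0.12 ± 0.17 (0.80). The 95% interval for Smoc2 ran from -0.47 to 0.22. Lgr5 and Gkn3 had too few counts. Lgr5 stood at 8.36, 3.31, 25.8, 8.78 and 18.1 CPM in low cells and at 6.28, 9.91, 5.67, 6.61 and 8.95 in G2/M-high cells, lower in 4 of 5 libraries.

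The comparison was repeated inside each class. Among S-phase-like cells alone, G2/M-high cells had less Slc12a2 (-0.62, edgeR adjusted p = 5.74e-04) and Cdca7 (-0.60, adjusted p = 0.0350), where 1.95% of 5960 genes fell and 4.68% changed. The first value is close to that over all crypt cells. There Axin2 (-0.84, adjusted p = 0.0598), Igfbp4 (-0.65, 0.254) and Olfm4 (-0.40, 0.672) missed the threshold. Among mitotic-like cells alone, with 12 to 43 low cells per library, edgeR called 100 of 5123 genes (1.95%), of which 57 were lower (1.11%). It called 0 members, but only Axin2, Cdca7, Igfbp4, Slc12a2 and Smoc2 were tested, not Olfm4. Slc12a2 stood at 0.43 (95% interval 0.07 to 0.79, edgeR adjusted p = 0.277) and Smoc2 at 0.71 (0.09 to 1.32, adjusted p = 0.305). Both intervals lay above 0, opposite to the fall of Slc12a2 over all crypt cells. Cdca7 stood at 0.03 (edgeR adjusted p = 0.983), Axin2 at -0.23 and Igfbp4 at -0.10. Markers of other cells were also compared between the states. The 10 enterocyte markers took a median of 0.489% of a cell's UMIs in low, 0.336% in S-high and 0.373% in G2/M-high cells, and the 8 Paneth markers 0.278%, 0.229% and 0.216%. The 8 immature enterocyte markers took 0.478%, 0.426% and 0.519%, and were higher in G2/M-high than in low cells in 5 of 5 libraries. Their part in the result was not tested.

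Against low cells, S-high cells had more Cdca7 and no other member passed the test. Cdca7 stood at 123, 135, 186, 174 and 154 CPM in S-high cells, above the low cells of the same library in 5 of 5 libraries, with a log2 fold change of 0.55 ± 0.13 (edgeR adjusted p = 0.00376). Of all genes tested, 4.14% rose and 4.52% fell, 8.66% in all. With 8 list UMIs as the threshold, Slc12a2, Smoc2, Ascl2, Igfbp4 and Olfm4 were called higher too, and with 2 Cdca7 was not called (edgeR adjusted p = 0.384). Slc12a2 (0.26 ± 0.10, edgeR adjusted p = 0.118) and Smoc2 (0.45 ± 0.20, 0.158) were also higher in 5 of 5 libraries but missed the threshold. Within S-phase-like cells alone, where 1.74% of genes were called, the Cdca7 difference was -0.01 (edgeR adjusted p = 0.992). Without sham 1 the Cdca7 value over all crypt cells was 0.51 (adjusted p = 0.0103).

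**Figure D3:**
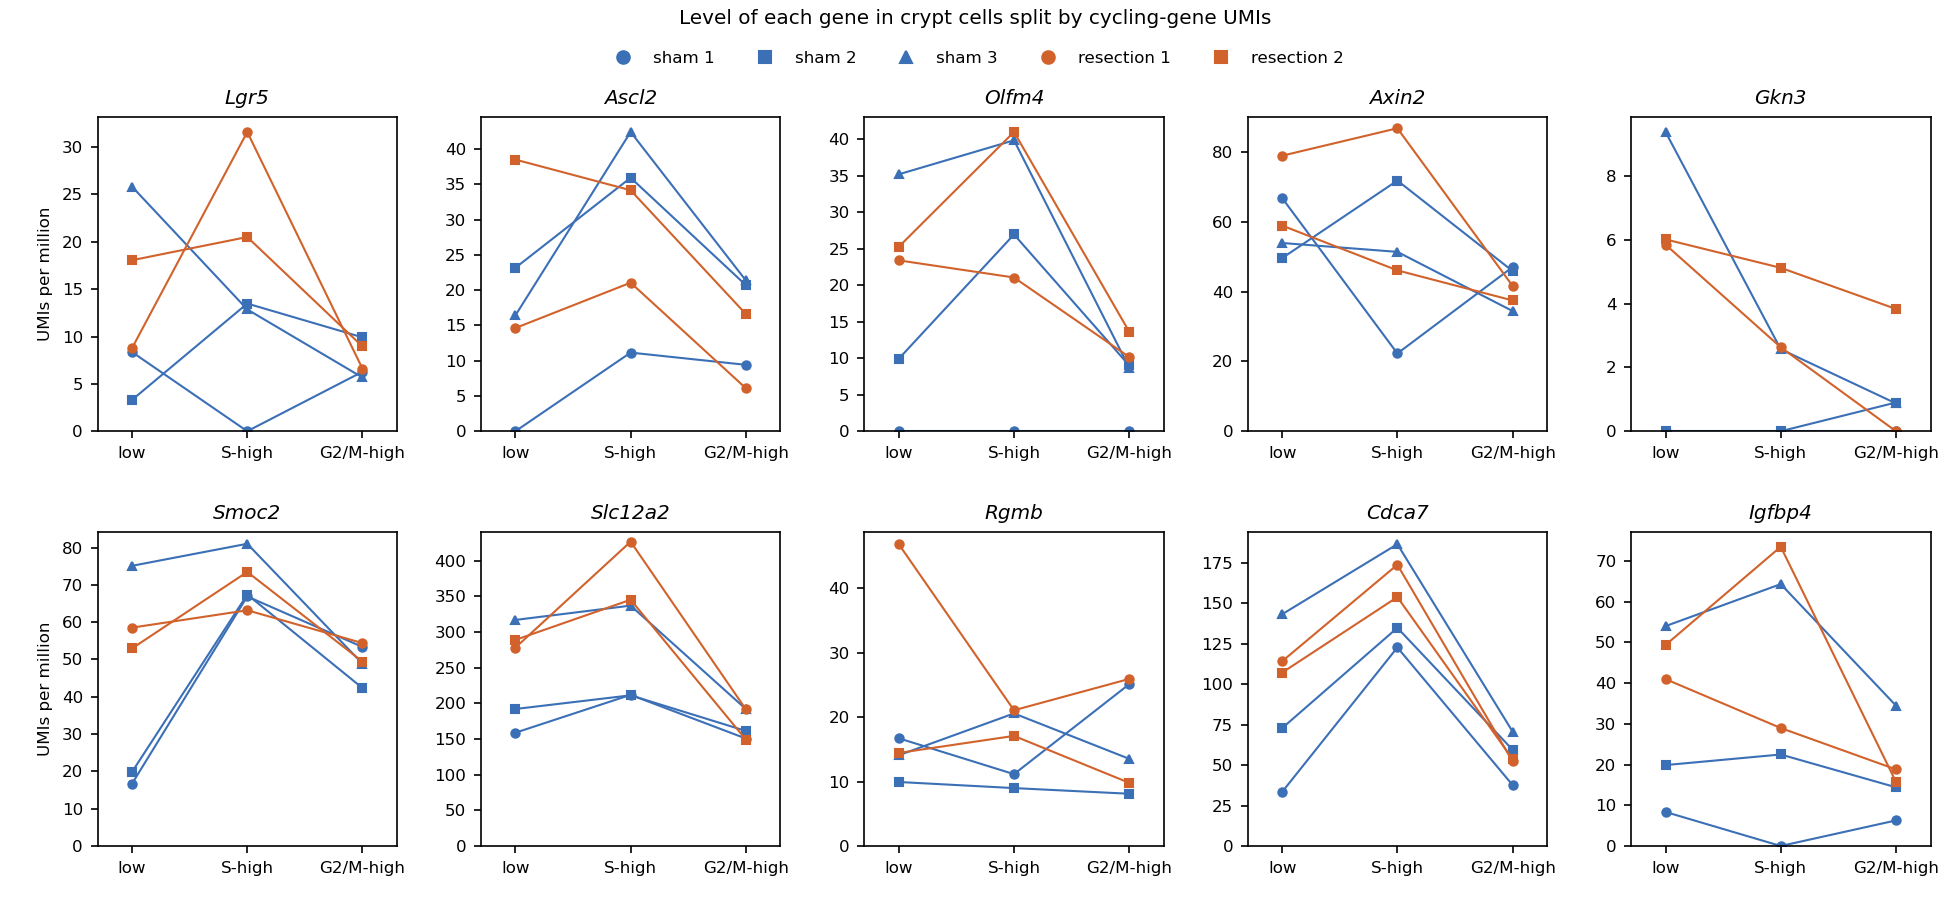
UMIs per 1000000 of each gene in crypt cells low in cycling-gene UMIs, S-high and G2/M-high, with 1 line per library (linear axes from 0, scaled to each gene). Slc12a2, Igfbp4 and Axin2 are lower in G2/M-high than in low cells in 5 of 5 libraries, and Cdca7 peaks in S-high cells in each. The Igfbp4 points of sham 1 rest on 1 UMI in low and 2 UMIs in G2/M-high cells.

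The share of cells with several members was lowest among G2/M-high cells. A thinned crypt cell held a mean of 0.913 of the 10 genes, against 0.0582 for an enterocyte-like cell. The mean was 1.33 in S-high, 1.15 in low and 0.691 in G2/M-high cells. Cells with 3 or more members were 16.1%, 17.3% and 6.49% of the cells of these 3 states in the same order. Of the 42 thinned crypt cells with Lgr5, 35.7% were G2/M-high, 38.1% S-high and 26.2% low, against 60.3%, 20.2% and 19.4% of the crypt cells without it. Of the 83 with Ascl2, 44.6% were G2/M-high, and of the 70 with Olfm4, 41.4%. Cells with these markers were thus found in every cycling state, in counts summed over the 5 libraries.

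The last question was whether resection changed the members. Among the 9810 genes tested in crypt cells, 0 (0.0%) passed an adjusted p of 0.05 in edgeR, 101 had an unadjusted p below 0.05, and DESeq2 called 1 gene. None of the 9 members that passed the filter on low counts was called, each with an edgeR adjusted p of 1.0. Lgr5 stood at 5.68 CPM in sham 1, 9.18 in sham 2 and 9.73 in sham 3, and at 10.4 in resection 1 and 12.8 in resection 2. The groups did not overlap, but after TMM scaling they did. Its log2 fold change was 0.32 ± 0.37 with a 95% interval of -0.51 to 1.15, and 0.19 without sham 1. Lgr5 was the 1 member of 10 whose groups did not overlap in crypt cells, where 8.91% of all genes tested did not.

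Ascl2 stood at 7.58, 23.2 and 25.5 CPM in sham 1 to 3 and at 9.30 and 24.2 in resection 1 and 2. The low values were those of sham 1 and resection 1, 1 library of each group, and the log2 fold change was -0.33 ± 0.53. Olfm4 stood at 0, 11.6 and 18.9 CPM in sham and at 13.4 and 20.5 in resection. Its log2 fold change of 0.34 ± 0.59 fell to 0.02 without sham 1. Igfbp4, at 5.68, 16.5 and 43.5 CPM in sham and 23.1 and 32.2 in resection, had a wide sham range, and the interval of its log2 fold change ran from -1.19 to 1.32.

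Gkn3, which did not pass the filter on low counts, stood at 0, 0.612 and 2.29 CPM in sham and at 1.12 and 4.52 in resection, and the groups overlapped. The better counted members had narrower intervals. Slc12a2 stood at 163, 174 and 239 CPM in sham and at 236 and 211 in resection, a log2 fold change of 0.15 with an interval of -0.58 to 0.88. Cdca7 stood at 51.1, 72.2 and 105 CPM in sham and at 77.4 and 81.1 in resection, with a log2 fold change of -0.05 and an interval of -0.87 to 0.78. Both resection values of Cdca7 lay inside the sham range. Axin2 stood at 47.4, 50.2 and 40.6 CPM in sham and at 52.8 and 43.6 in resection, with a log2 fold change near 0 and an interval of -0.61 to 0.61. Smoc2 stood at 47.4, 41.6 and 59.2 CPM in sham and at 56.2 and 54.0 in resection (0.08, interval -0.56 to 0.73). Rgmb stood at 20.8, 8.57 and 15.2 CPM in sham and at 27.9 and 12.0 in resection (0.40, interval -0.48 to 1.27). Without sham 1 the log2 fold changes were -0.59 for Ascl2, -0.26 for Igfbp4, -0.021 for Slc12a2, -0.29 for Cdca7, -0.044 for Axin2, -0.010 for Smoc2 and 0.50 for Rgmb, so that the sign turned for Igfbp4, Slc12a2, Axin2 and Smoc2. Changes of up to about these bounds could not be detected with 3 and 2 libraries. The summed level of the 10 enterocyte markers in crypt cells was 2740 to 5308 CPM in sham and 4719 and 8981 in resection. Its part in these values was not tested.

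In the other classes edgeR called no member that passed the filter on low counts. Only Axin2, Cdca7, Slc12a2 and Smoc2 passed it in every class listed next, and Rgmb in all but goblet-like cells. Gkn3 was tested in none of them. Ascl2 and Olfm4 were tested only in the crypt classes and over all epithelial cells. The same held for Lgr5 and Igfbp4, except that Lgr5 was also tested among Paneth-like and Igfbp4 among enterocyte-like cells. Counts of called genes over all genes tested were 0 in mitotic-like, immature enterocyte-like, enterocyte-like and goblet-like cells and over all epithelial cells, with 94, 152, 578, 221 and 333 genes at an unadjusted p below 0.05 and 0, 1, 75, 6 and 31 calls by DESeq2. They were 1 gene (0.0137%) in S-phase-like and 2 genes (0.0322%) in Paneth-like cells. The gene in S-phase-like cells was Apoa4, an enterocyte apolipoprotein, and the 2 in Paneth-like cells were the glucose transporter Slc2a2 and the cytochrome Cyp2b10. Axin2 in enterocyte-like cells, the class that held the largest share of its UMIs, was singled out after the values were seen. It stood at 17.2, 12.0 and 5.68 CPM in sham 1 to 3 and at 17.9 and 19.7 in resection 1 and 2. The groups did not overlap, as for 16.5% of genes in that class, and sham 1 lay close to resection 1. The log2 fold change was 0.74 ± 0.38 (edgeR adjusted p = 0.988), and the log2 ratio was 0.06 between resection 1 and sham 1 and 1.16 between resection 2 and the mean of the other shams. Of the 2360 enterocyte-like cells of resection 1, 775, 451 and 54 lay in 3 clusters that each held at most 21 cells of any sham library. In goblet-like cells Axin2 (0.80 ± 0.45) and Cdca7 (-0.94 ± 0.50) had the larger estimates, each with an edgeR adjusted p of 0.999. Lgr5 in Paneth-like cells had a log2 fold change of 0.65 ± 0.56 (edgeR adjusted p = 0.9995). The Paneth-like cells of the libraries lay in different clusters: 215 of 217 in sham 1, 169 of 174 in resection 1, 107 of 117 in sham 3, 235 of 237 in sham 2 and 166 of 263 in resection 2 lay in 5 separate clusters, with 93 more cells of resection 2 in that of sham 2.

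Groups that did not overlap were also found for Lgr5 in S-phase-like cells (11.7% of genes there) and immature enterocyte-like cells (7.95%) and for Olfm4 in mitotic-like cells (8.86%). They were found for Ascl2 and Rgmb in goblet-like cells (16.6%), for Ascl2 and Axin2 in Paneth-like cells (10.7%) and for Axin2 over all epithelial cells (20.3%). These shares cover genes past the filter on low counts. Ascl2 and Rgmb in goblet-like, Ascl2 in Paneth-like and Lgr5 in immature enterocyte-like cells did not pass it. In goblet-like cells Ascl2 had 0, 2 and 2 UMIs in sham and 4 and 4 in resection. In Paneth-like cells it had 0, 1 and 0 in sham and 2 and 5 in resection. Lgr5 in immature enterocyte-like cells had 1, 2 and 2 UMIs in sham and 0 and 3 in resection. After TMM scaling, Olfm4 in mitotic-like and Axin2 in Paneth-like cells overlapped, and Cdca7 did not in enterocyte-like and goblet-like cells.

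Shares of cells with a UMI were compared for 10 members in crypt cells and over all epithelial cells, 20 exact two-sided permutation tests over the 10 ways to choose 2 of 5 libraries, for which the smallest possible p is 0.1. The lowest p was 0.2, for Axin2 in crypt cells (9.88%, 8.99% and 8.33% in sham against 10.1% and 10.1% in resection) and over all epithelial cells (3.36%, 2.74% and 2.44% against 3.98% and 4.21%). With at most 10% mitochondrial UMIs per cell, the Axin2 difference in crypt cells turned from 1.06 to -4.73 percentage points. All adjusted p-values were 1.0. For Lgr5 the share was 1.23%, 2.62% and 2.62% of crypt cells in sham and 1.79% and 2.96% in resection.

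The state differences were also compared between the surgery groups. For the interaction of state with surgery edgeR called 0 of 6450 genes (background 0.0%) for both states, with 233 genes at an unadjusted p below 0.05 for G2/M-high and 271 for S-high cells. The interaction of Ascl2 for G2/M-high cells was -1.45 ± 0.55 (unadjusted p = 0.0102, edgeR adjusted p = 0.9998). Ascl2 stood at 0, 23.2 and 16.4 CPM in low cells of sham and 14.6 and 38.5 in low cells of resection, and at 9.42, 20.7, 21.4, 6.10 and 16.6 in G2/M-high cells. The fall in G2/M-high cells was seen in both resection libraries and, in sham, in sham 2 alone.

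**Figure D4:**
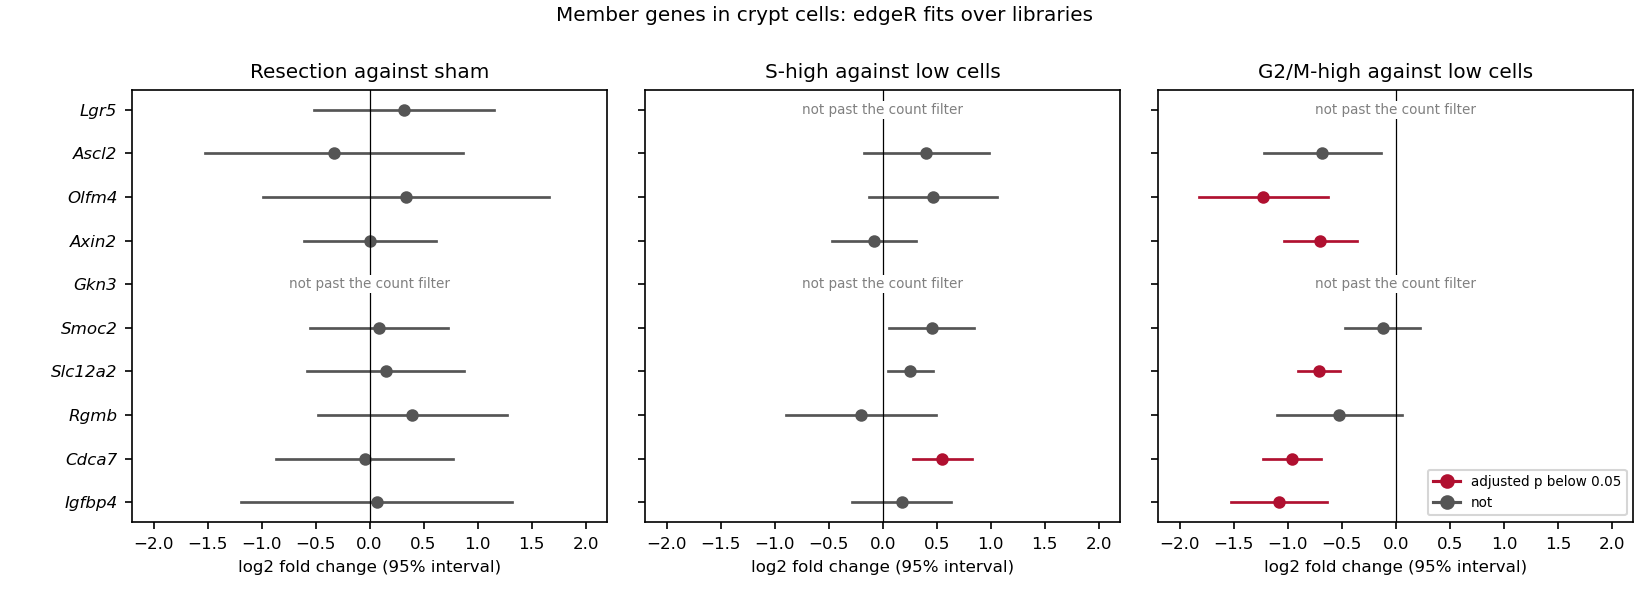
Log2 fold changes of the members in crypt cells with 95% intervals from edgeR for resection against sham and for S-high and G2/M-high against low cells, red where the adjusted p is below 0.05. Intervals for surgery all cross 0, and 5 members are red for G2/M-high and 1 for S-high cells.

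The wider pathways of the crypt gave the members a frame. For surgery, 0 genes were called in any of 6 lists. The median log2 fold change was 0.02 over 21 tested Wnt pathway genes, 0.11 over 9 Notch pathway genes, 0.14 over 17 other stem and crypt genes, -0.54 over 8 injury-repair genes, -0.19 over 25 S-phase genes and -0.03 over 26 G2/M genes, against -0.01 over all genes. The genes with the lowest p were Myc, Lrp5 and Apc (Wnt), Hes1, Rbpj and Dll1 (Notch), Hopx, Soat1 and Sectm1b (stem and crypt), Ereg, Areg and Krt7 (injury-repair), Mcm5, Prim1 and Hells (S-phase) and Aurka, Plk1 and Cenpe (G2/M), each with an edgeR adjusted p of 1.0. Ereg, an epidermal growth factor family ligand, had the lowest unadjusted p of these, 0.020, at -1.03 ± 0.37.

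For G2/M-high cells, 1 of 14 tested Wnt genes fell, the crypt transcription factor Sox9 (-0.82 ± 0.15, edgeR adjusted p = 3.80e-05). Cd44, a hyaluronan receptor, and Ccnd1, cyclin D1, stood at -0.66 (adjusted p = 0.0728) and -0.21 (0.137). Of 4 tested Notch genes, Hes6 fell (-0.44, adjusted p = 0.0480), and Rbpj and Hes1 did not pass. Of 13 tested stem and crypt genes, 4 fell: Pdgfa (-0.97), Cdk6 (-0.76), Clca3b (-0.33) and 2210407C18Rik (-1.14). One rose, Stmn1, a microtubule regulator (0.56 ± 0.08, edgeR adjusted p = 6.27e-07). Of 5 tested injury-repair genes the keratin Krt7 fell (-0.51, adjusted p = 0.00324), and Ccnd2 and Areg did not pass. The medians were -0.18, -0.32, -0.33 and -0.14 for the 4 lists, against -0.04 over all genes tested. Over all 5971 genes tested, 3.38% were called lower and 3.1% higher, 6.48% in all, and the lists hold few tested genes. For S-high cells, called genes were 0 of 14 in the Wnt list and 0 of 4 in the Notch list. They were 2 higher of 13 in the stem and crypt list and 1 higher and 2 lower of 5 in the injury-repair list. Over all genes tested, 4.14% were called higher and 4.52% lower, 8.66% in all.

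Genes with a similar pattern were looked up by Pearson correlation over 35 sums of class and library, among 2317 candidates with a mean of at least 50 CPM. These points share libraries and depth, and cycling classes dominate the pattern, so the values are descriptive. Cdca7 was closest to the nucleotide-pool enzyme Dut (r = 0.952), then Hmgn1 and Nop56. Dut also led for Ascl2 (0.880), Olfm4 (0.772) and Gkn3 (0.679), followed by Lyar for each and then by Lig1, a DNA ligase, for Ascl2 and Olfm4 and by Wbp5 for Gkn3. Slc12a2 led for Smoc2 (0.933) and Lgr5 (0.796), followed in both by Wbp5 and then by Rangrf and Dut. Slc12a2 itself was closest to Wbp5 (0.930), 2810417H13Rik and Lig1, and Igfbp4 to Wbp5 (0.856), Stmn1 and Slc12a2. Axin2 was closest to the chromatin protein Dek (0.919), Nasp and Zfp36l2, and Rgmb to Sypl (0.769), Hnrnpa0 and Cbx3. The floor of 50 CPM left out members with lower means. Between members, Olfm4 stood at 0.888 with Igfbp4, 0.883 with Ascl2 and 0.873 with Gkn3. Lgr5 stood at 0.836 with Ascl2 and 0.831 with Smoc2. For these 5 genes (Olfm4, Igfbp4, Ascl2, Gkn3 and Lgr5) the values lay above those of the leading candidates. For Axin2, Cdca7 and Rgmb no member lay above the 3 genes named.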

How the data were processed

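Per the labels, cells were captured with 10x Chromium 3 prime chemistry and the authors made gene by barcode matrices with Cell Ranger, whose version the labels give with a question mark. The deposited values are raw UMI counts. The builds mm10 and GRCm38 come from the submitters' processing notes, and whether counting used strand is not given in the sources used here. Libraries held 11749028 to 41281731 UMIs.

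Cells with at least 500 genes and at most 20% mitochondrial UMIs were kept, and the cells scored highest against simulated doublets (0.8% per 1000 cells) were removed. From 2000 variable genes without the members, 30 principal components and 20 neighbours gave Leiden clusters at resolution 1.0. The plan was to leave genes unscaled between libraries. After seeing the data, clustering with genes scaled within each library was made the reported clustering, because the unscaled one put 0 cells of sham 1 and 15 of resection 1 in the S-phase-like class. The unscaled clustering became an alternative. Shares of cells were computed after thinning each cell to 2000 UMIs.

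Counts were summed per library and class, with at least 20 cells, or per library and state, with at least 10, and tested with edgeR 4.0.16 (TMM scaling, filterByExpr, quasi-likelihood, Benjamini-Hochberg adjustment over all genes tested) in R 4.3.3. The state fit had the library as a term. DESeq2 1.42.0 was an alternative, and its missing adjusted p-values stayed missing. The tests were checked on simulated data. Other tools were numpy 2.4.6, scipy 1.17.1, scikit-learn 1.9.0 and leidenalg 0.10.2. Alternatives also covered size factors, filters, doublets, resolution, thresholds, thinning, left-out libraries, a library set and a replicate block.

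All 10 members were named in each comparison, with the 3 genes of lowest p from each list (and any further gene called) and the 3 genes most like each member by correlation of log2(CPM + 10). The members and lists were chosen with earlier results of these data known.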

Additional observations from a re-analysis of the deposited data

How the results depend on the processing

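Under the alternatives, member values kept their direction and their side of the threshold in 383 cases, reversed in 68, lost a call in 20 and gained one in 7, and no member was called for surgery in crypt cells under any alternative run. Few crypt cells in sham 1 and 2 resection libraries limit the surgery values. The cause of each change was not tested.

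Against 387 genes called for G2/M-high cells, 2 list UMIs gave 96, DESeq2 173, mitotic-like cells alone 100, thinning to 1000 UMIs 211 and leaving out 1 library 189 to 358. Against 517 for S-high cells, the same settings gave 57, 296, 104 (S-phase-like cells alone), 288 and 214 to 472, and keeping doublets gave 327. For surgery, DESeq2 called 4 genes in Paneth-like, 31 in all epithelial, 1 in crypt, 75 in enterocyte-like, 6 in goblet-like and 1 in immature enterocyte-like cells. With no filter on low counts the counts were 12 in Paneth-like, 7 in S-phase-like, 18 in all epithelial, 9 in crypt, 249 in enterocyte-like, 30 in goblet-like, 7 in immature enterocyte-like and 2 in mitotic-like cells. A term for the library set (sham 1 and resection 1 against the rest) gave 9 in Paneth-like, 2 in S-phase-like, 3 in all epithelial, 19 in enterocyte-like, 2 in goblet-like and 1 in immature enterocyte-like cells. Keeping doublets gave 2 in S-phase-like and 4 in goblet-like cells, and members kept in the clustering gave 0 in S-phase-like cells. Resolution 0.5 merged the S-phase-like and mitotic-like cells into 1 cluster, so its count of 0 is for that merged cluster. Leaving out 1 library gave 0 to 12 in Paneth-like, 0 to 2 in S-phase-like, 0 to 3 in enterocyte-like and 0 to 8 in goblet-like cells.

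The labels number libraries 1 and 2 in both groups without saying that they pair. With the replicate block, surgery calls were 51 in Paneth-like, 38 in S-phase-like, 268 in all epithelial, 28 in crypt, 104 in enterocyte-like, 10 in goblet-like, 73 in immature enterocyte-like and 54 in mitotic-like cells, and the crypt log2 fold changes of Ascl2, Axin2 and Cdca7 turned to 0.073, -0.086 and 0.30. Igfbp4 moved to 1.14 (95% interval 0.48 to 1.80), Olfm4 to 1.17 (0.23 to 2.10), Slc12a2 to 0.38 (0.00079 to 0.75) and Gkn3, then tested, to 2.84 (0.39 to 5.29), with edgeR adjusted p-values of 0.283, 0.713, 0.917 and 0.748.

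Among the log2 fold changes that turned sign, S-high against low within S-phase-like cells gave Ascl2 -0.26, Cdca7 -0.014, Igfbp4 -0.25, Olfm4 -0.19, Slc12a2 -0.33 and Smoc2 -0.055. Axin2 turned to 0.59 (2 list UMIs), 0.15 (8), 0.011 (unscaled clustering) and 0.49 (thinned to 1000), and Rgmb to 0.87, 0.16 (8) and 0.70 (thinned to 1000). For G2/M-high cells, mitotic-like cells alone gave Cdca7 0.030, Slc12a2 0.43 and Smoc2 0.71, S-phase-like cells alone Smoc2 0.023, 2 list UMIs Rgmb 0.094, 8 Smoc2 0.055 and thinning to 1000 Smoc2 0.17. For surgery, Ascl2 was 0.30 and Cdca7 0.60 between resection 1 and sham 1, Axin2 -0.059 among the other libraries, and Ascl2 0.040 and Cdca7 0.10 with the set term. Axin2 was -0.011 with doublets kept, -0.019 in the unscaled clustering, -0.00037 with median-ratio factors and -0.019 with members kept. Leaving out 1 library gave surgery ranges of -1.39 to 0.27 (Ascl2), -0.062 to 0.15 (Axin2), -0.29 to 0.30 (Cdca7), -0.35 to 1.07 (Igfbp4), -0.17 to 1.05 (Olfm4), -0.14 to 0.80 (Rgmb), -0.021 to 0.38 (Slc12a2) and -0.031 to 0.30 (Smoc2). For S-high cells it gave -0.17 to 0.036 (Axin2) and -0.19 to 0.23 (Rgmb), and for G2/M-high cells -0.23 to 0.10 (Smoc2).

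Differences in the share of crypt cells (percentage points, resection minus sham) turned to 1.05 (Ascl2), -4.73 (Axin2), -1.23 (Cdca7) and -1.31 (Igfbp4) with at most 10% mitochondrial UMIs. Gkn3 turned to 0.925 without thinning and 0.231 at 1000 UMIs, where Lgr5 was -0.312 and Smoc2 -0.842. Leaving out 1 library gave -1.84 to 1.70 (Ascl2), -1.09 to 5.57 (Cdca7), -0.442 to 0.429 (Gkn3), -0.984 to 2.45 (Igfbp4), -0.367 to 0.803 (Lgr5), -1.26 to 1.36 (Olfm4) and -0.779 to 6.68 (Slc12a2).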
